A study of Mus musculus with 10 samples.

Results

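The comparison was between the 3 Gatad2b stop/stop (KO) embryos and the 3 WT embryos, chosen by the genotype in their labels, which are 6 of the 10 embryos of the study. Cortex was dissected at E16.5 from embryos of the C57BL/6N-A tm1Brd background, dissociated with papain and sequenced as 1 single-cell library per embryo (10X Genomics 3′ version 3). The stop allele is Gatad2b tm1a, a germline insertion of a splice-trapping cassette into an intron that leaves every exon in place, so KO cells carry it on both chromosomes in every tissue, while WT embryos carry none. The 4 remaining embryos are Gatad2b stop/+ (Het). The litter and sex of the embryos are not in the labels. A cell was kept when it had 1000 UMIs or more, of which no more than 10% were mitochondrial, which left 40256 cells in the 6 embryos out of 65779 in the series. UMIs were summed over the kept cells of an embryo, and the embryo is the replicate throughout. The file names of the 3 WT libraries begin with GA429 and those of the 3 KO libraries with GA422, so the prefix and the genotype cannot be told apart in this comparison. The meaning of the prefix is not stated in the sources used here. Het embryos 1 to 3 share GA422 with KO and Het embryo 4 shares GA429 with WT, and values of these embryos and a comparison of KO with Het embryos 1 to 3 are therefore given beside the results.

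Gatad2b is a subunit of NuRD, a complex that joins a nucleosome remodeler of the Chd family to the histone deacetylases Hdac1 and Hdac2 and is best known for the silencing of promoters and enhancers. In the developing cortex, radial glia divide at the ventricle and give rise to intermediate progenitors of the subventricular zone, which produce the excitatory neurons of the layers, while inhibitory neurons migrate in from the ganglionic eminences. Subunits of NuRD are exchanged as progenitors become neurons, with Chd4 present in dividing cells and Chd5 in neurons.

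From 5147 to 8103 cells were kept per embryo, with 82872641 to 118476341 UMIs in all. The median of UMIs per cell was 11889, 14844 and 10795 in WT and 17077.5, 14544 and 14324.5 in KO. Of the deposited barcodes, 78.0%, 77.2% and 77.9% were kept in WT and 90.3%, 85.8% and 84.5% in KO, without overlap. Het embryos 1 to 3 kept 77.8%, 85.0% and 86.3% and Het embryo 4 kept 84.8%. The part of this difference in the shares of cells was not tested. The median mitochondrial share was 3.93%, 3.97% and 3.72% in WT and 4.58%, 4.53% and 4.31% in KO, with no overlap, and it was 4.66%, 4.51% and 4.34% in Het embryos 1 to 3 and 3.60% in Het embryo 4. Xist, transcribed from the inactive X chromosome, was at 1251 CPM in WT embryo 2 and 1414, 1468 and 1417 CPM in KO but at 0.154 and 0.140 CPM in WT embryos 1 and 3. The 4 sex genes tested (Xist, Tsix and the Y genes Kdm5d and Uty) summed to 48.2 CPM in WT embryo 1 but 0.521 CPM in WT embryo 3. Xist was thus high in every KO embryo but only in WT embryo 2 among WT, and the part of sex in the results was not tested. Ttr, which marks choroid plexus, was at 1760.5, 107 and 1.83 CPM in WT and 0.0282, 0.0246 and 0.0300 CPM in KO. Of the 6 choroid plexus markers tested, 5 were called lower in KO. Their summed level was 1787, 112 and 5.71 CPM in WT, 2.77 to 6.22 CPM in the 4 Het embryos and 2.53 to 3.54 CPM in KO, so WT embryos 1 and 2 stood apart and WT embryo 3 was close to the rest. Of 9 endothelial markers 1 was called lower and of 7 fibroblast markers 2 were. Of 10 microglia, 8 mural cell and 7 erythroid markers, none was called by edgeR, with an unadjusted p under 0.05 in 0, 1 and 1 (DESeq2 called 1 mural cell marker). Cells with striatal markers made up 8.44% to 12.5% of an embryo, although the label names only cortex. Any 2 WT or KO libraries shared 4 to 17 cell barcodes.

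Gatad2b, on chromosome 3 at chr3:90293178-90363407 of GRCm38 (plus strand), was measured at 139, 131 and 134 CPM (UMI counts scaled to library size with TMM factors, the unit of every level given here) in the 3 WT embryos and at 50.9, 52.8 and 57.3 CPM in the 3 KO embryos. All 4 Het embryos were between them, at 94.2, 89.8 and 89.96 CPM under GA422 and 95.7 CPM under GA429. The log2 fold change of KO over WT was −1.32 ± 0.05 (SE, edgeR adjusted p = 1.11e-07). The 3′ chemistry reads mainly the 3′ end of a transcript, past the cassette, and read positions were not examined. The UMIs left in KO therefore do not tell how much intact transcript or protein was made. By western blot the study detected no Gatad2b protein in KO cerebellum, and in nuclei of KO cortex it saw no staining. Of 180 genes tested within 5 Mb of Gatad2b, 25 were called higher and 8 lower, against 12.02% higher and 12.5% lower over all genes tested.

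A gene was called when its adjusted p was under 0.05 and its absolute log2 fold change above 0.25. Over all cells 2121 of 17647 genes were called higher in KO (12.02%) and 2205 lower (12.5%), together 24.5%, and the 3 KO and 3 WT embryos did not overlap in 4241 called genes (24.03%). Against Het embryos 1 to 3, which share the prefix, 501 of 17165 genes were called higher in KO (2.92%) and 553 lower (3.22%), together 6.14%. The counts of each gene list stand against these shares. Both comparisons use the same KO embryos, and the second sets 2 mutant alleles against 1. Of 57 lists of pathways and gene families, 32 had more members called higher than lower against WT and 21 had more members called lower, and this balance turned to 24 and 28 when counts were scaled by total UMIs alone. In these sums, fewer cells of a type and less RNA per cell of that type cannot be told apart.

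By size, the genes that changed most were a mixed group, of which Nts, Kif26b, Npy, Dtx4, Mc4r, Fos, Hist1h1e and Gadd45g are described with their lists below. Among the others at 10 CPM or more on average, Mical2, an enzyme that takes apart actin filaments, fell from 17.5, 16.7 and 16.6 CPM to 4.61, 3.12 and 4.35 CPM (log2 fold change −2.07 ± 0.12), with 9.44, 10.2 and 10.2 CPM in Het embryos 1 to 3 and 8.99 CPM in Het embryo 4. Mast4, a kinase bound to microtubules, and Caln1, a neuronal calcium-binding protein, fell by 1.45 and 1.39 on the log2 scale. Of the genes that rose, Ucp2, a carrier of the inner mitochondrial membrane, was at 6.98, 6.62 and 6.66 CPM in WT and 18.2, 16.8 and 14.6 CPM in KO, and Prkcd, a protein kinase C, at 8.35, 7.52 and 6.26 and 18.4, 18.7 and 18.3 CPM. Lgals1, a galactose-binding lectin, and Ifitm2, an interferon-induced membrane protein, rose by 1.30 and 1.23. All 7 of these genes had their Het embryos between WT and KO. AY036118 was the exception and was at 324, 295 and 339 CPM in WT and 265 CPM in Het embryo 4 but 973, 1019.9 and 981 CPM in Het embryos 1 to 3 and 964, 1087 and 994 CPM in KO.

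**Figure D1:**
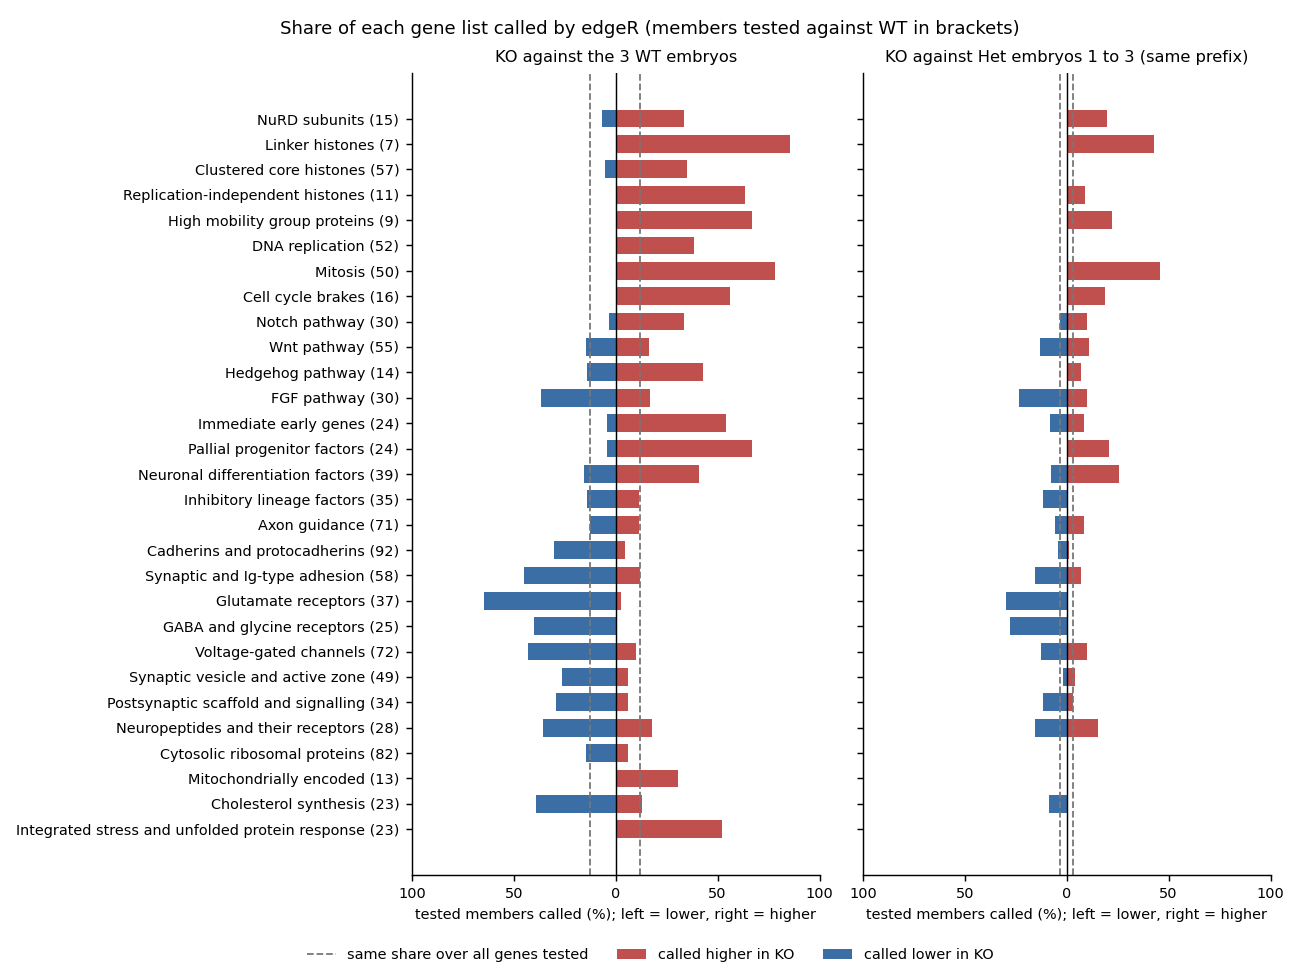
Bars give the percent of the tested members of each gene list that edgeR called higher (right) or lower (left) in KO, against the 3 WT embryos in the left panel and against Het embryos 1 to 3 in the right panel, and dashed lines give the same percent over all genes tested. Mitosis (39 of 50 higher) and glutamate receptors (24 of 37 lower) lie far outside the dashed lines in both panels, while immediate early genes (13 of 24 higher) do so only in the left one.

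Among the 15 NuRD subunits other than Gatad2b, 5 rose and 1 fell. Cdk2ap1, a small subunit of the complex, was at 78.1, 82.8 and 69.2 CPM in WT and 145, 182 and 152 CPM in KO, with 135, 124 and 132 CPM in Het embryos 1 to 3 and 79.9 CPM in Het embryo 4, so that its Het values followed the prefix. Hdac1, one of the deacetylases, was at 33.1, 33.6 and 34.02 CPM in WT and 48.7, 49.7 and 48.01 CPM in KO, a log2 fold change of 0.54 ± 0.04 (adjusted p = 6.98e-06), and was between these in all 4 Het embryos. Gatad2a, the paralogue that can take Gatad2b's place in the complex, rose from 49.8, 48.7 and 52.4 CPM to 72.6, 64.9 and 68.05 CPM (log2 fold change 0.45 ± 0.056, adjusted p = 0.000214). Both groups were apart for each of these genes. Chd5, the remodeler of neurons, was the one of the 15 that fell, from 72.4, 83.4 and 81.2 CPM to 52.9, 50.5 and 57.7 CPM (log2 fold change −0.56 ± 0.11). Against Het embryos 1 to 3, 3 of these 15 were called higher and none lower by edgeR, and Gatad2b was lower, with a log2 fold change of −0.77 (adjusted p = 9.06e-05). Of the other chromatin complexes, 4 of 26 BAF subunits rose and 3 fell, and 2 of 27 Polycomb subunits rose and 2 fell. Ezh1, a Polycomb methyltransferase of non-dividing cells, fell from 16.52, 15.4 and 17.1 CPM to 12.6, 11.4 and 11.7 CPM.

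Most linker histone genes and part of the core histone genes were called higher in KO. Linker histones bind the DNA between nucleosomes and compact it, and 6 of 7 rose, with a median log2 fold change of 0.66. Hist1h1e was at 128, 104 and 102 CPM in WT and 285, 314 and 293 CPM in KO, and its log2 fold change of 1.42 ± 0.16 (adjusted p = 0.000104) was the largest of the list's members called. H1f0, the replacement form of cells that stop dividing, rose from 144, 132 and 132 CPM to 228, 232 and 249 CPM (log2 fold change 0.80 ± 0.06). The lowest KO embryo exceeded the highest WT embryo for both genes. Het embryos 1 to 3 had 261, 254 and 230.0 CPM of Hist1h1e and Het embryo 4 had 156 CPM, and against Het embryos 1 to 3 KO was higher by 0.26 (adjusted p = 0.0199), and for H1f0 by 0.42 (adjusted p = 0.00306). Among the clustered core histones 20 of 57 rose and 3 fell, and none of 56 was called by edgeR against Het embryos 1 to 3 (unadjusted p under 0.05 in 4). With equal numbers of cells from each cluster in every embryo, 7 core histones were called higher and 13 lower, and 3 linker histones higher and none lower. Transcripts of most clustered histone genes lack a poly(A) tail, so the oligo-dT capture of this chemistry sees only part of them. Replication-independent histones rose in 7 of 11 and fell in none, among them H3f3b, which encodes the histone H3.3, at 2512, 2434 and 2619.6 CPM in WT and 3789, 4042 and 4024 CPM in KO. High mobility group proteins, which bend DNA or loosen nucleosomes, rose in 6 of 9, among them Hmgb2 from 328, 375 and 299.8 CPM to 512, 515 and 506 CPM (log2 fold change 0.61 ± 0.077). With equal cells per cluster 3 replication-independent histones and 2 high mobility group genes were called higher, and against Het embryos 1 to 3 it was 1 and 2.

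**Figure D2:**
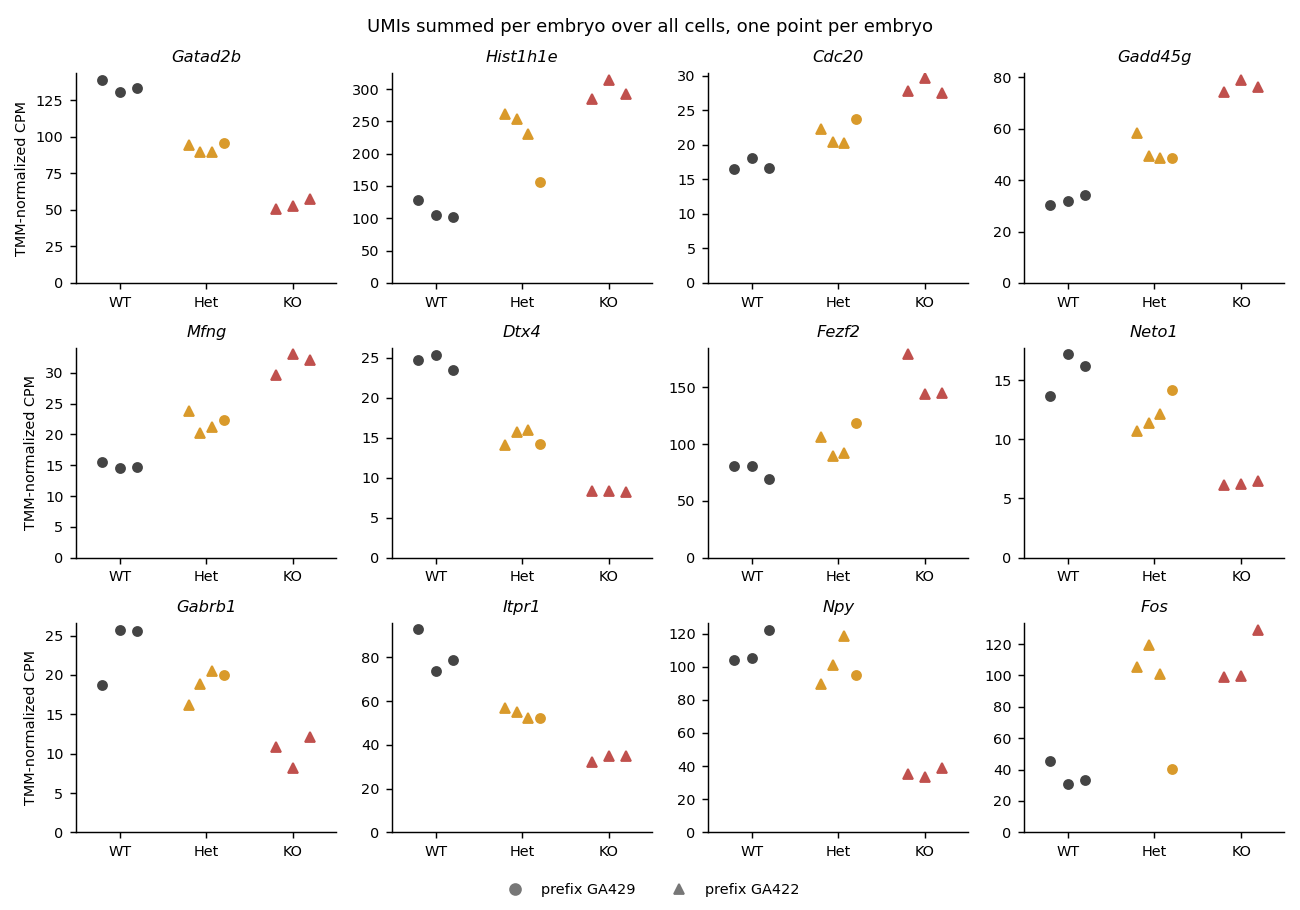
Each panel gives 1 gene, with the TMM-normalized CPM of each embryo on a linear axis from 0 and the genotype across, circles for prefix GA429 and triangles for GA422. Het embryos lie between WT and KO for Gatad2b, Gadd45g, Mfng, Dtx4 and Itpr1 whichever their prefix, lie with or near WT for Npy, and follow the prefix for Fos.

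Genes of mitosis were the list with the largest share called higher among those of 50 or more genes. Of 50 members 39 rose and none fell, with a median log2 fold change of 0.41, and against Het embryos 1 to 3 the count was 23 higher and none lower. Cdc20, which activates the ubiquitin ligase that starts anaphase, was at 16.53, 18.1 and 16.6 CPM in WT and 27.8, 29.7 and 27.4 CPM in KO (log2 fold change 0.73 ± 0.066, adjusted p = 2.63e-05), and in all 4 Het embryos it lay between. Birc5, which holds the chromosomal passenger complex at centromeres, rose from 23.9, 27.8 and 23.9 CPM to 40.8, 44.7 and 37.9 CPM, and Cdca3, which promotes entry into mitosis, from 16.4, 19.5 and 17.6 CPM to 27.3, 27.4 and 28.6 CPM. Genes of DNA replication rose in 20 of 52 and fell in none, but none was called by edgeR against Het embryos 1 to 3 (unadjusted p under 0.05 in 14). Pcna, the sliding clamp of the polymerases, was at 26.4, 30.3 and 25.6 CPM in WT, 38.6, 48.03 and 38.98 CPM in KO, 39.6, 39.4 and 42.2 CPM in Het embryos 1 to 3 and 30.1 CPM in Het embryo 4. Mcm2, a subunit of the replicative helicase, was at 9.55, 9.82 and 9.08 CPM in WT and 12.9, 14.3 and 14.8 CPM in KO.

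The share of dividing cells moved with these counts. Cluster 6, led by Top2a, Mki67 and Cenpf, took up 3.53% ± 0.536 of all cells in WT embryos against 5.97% ± 0.468 in KO embryos (SD, n = 3), without overlap. Its best marker list was that of the ganglionic eminence (score 2.59, against 0.558 for the subventricular zone). No marker of that list was among its leading genes, so it was left unnamed. The study reported a reduced share of its own ganglionic eminence cells in KO, and the clusters were not matched. When each embryo was given the same number of cells from each cluster, 1 of 50 mitosis genes was called higher and 3 lower (median −0.04, against 10.8% and 12.1% of all genes), and 2 of 52 replication genes were called in each direction. Within radial glia-like cells alone, 27 of 50 mitosis genes were called higher and none lower (median 0.43), against 7.15% of all genes tested there. That count was 8 without WT embryo 3, 11 without KO embryo 1, 15 without KO embryo 2 and 22 to 31 without any other embryo, and it was 2 with the prefix as a covariate. Over all cells that covariate, which draws on the Het embryos, left 35 of the 50 called higher. Cdc20 was at 109.6, 135 and 114 CPM in the radial glia-like cells of WT and 216, 255 and 215 CPM in those of KO. The part of cells in mitosis within that class was not measured apart.

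A short element was found in most promoters of the mitosis genes. Of the 50 members, 42 matched a RefSeq promoter of GRCm38.p6, from 250 bases before to 50 after the start, and the cell cycle homology region TTTGAA, searched on both strands, was in 33 of them (78.6%), against 15.0% of 12615 promoters of tested genes. DNA replication promoters held it in 7 of 42 (16.7%). They held the E2F site TTTGGCGC in 7 of 42 (16.7%), against 1.04% of all promoters, while mitosis promoters held it in 1 of 42 (2.38%). CCAAT, which both lists share with many promoters, was in 78.6% of the mitosis, 59.5% of the replication and 42.4% of all promoters. A match is a run of letters and does not show that a factor binds. The last 100 bases before the start are shown for 3 mitosis genes with the match within 60 bases of the start and the largest fold changes, with the match nearest the start in capitals (TTCAAA is TTTGAA read on the other strand).
Cdc20, chr4:118437344-118437443, minus strand: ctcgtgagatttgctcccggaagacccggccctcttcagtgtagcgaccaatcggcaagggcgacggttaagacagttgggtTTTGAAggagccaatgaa
Kif11, chr19:37376282-37376381, plus strand: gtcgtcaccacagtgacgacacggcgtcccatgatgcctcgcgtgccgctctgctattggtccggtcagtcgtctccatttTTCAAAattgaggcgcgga
Cdk1, chr10:69352913-69353012, minus strand: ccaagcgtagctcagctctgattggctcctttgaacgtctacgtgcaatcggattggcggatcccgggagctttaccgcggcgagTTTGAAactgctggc
The matches begin 18, 19 and 15 bases before the start of these genes, of which Kif11 is the motor that pushes spindle poles apart and Cdk1 the kinase that drives mitosis.

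Genes that slow or stop the cell cycle rose beside the mitosis genes, in 9 of 16 with none lower. Against Het embryos 1 to 3, 3 were called higher. With equal cells per cluster 7 were called higher, and with the prefix as a covariate 2 were. Gadd45g, a stress sensor that neuronal progenitors express as they leave the cycle, was at 30.3, 32.1 and 34.3 CPM in WT and 74.5, 79.2 and 76.2 CPM in KO (log2 fold change 1.25 ± 0.071, adjusted p = 1.17e-06). It was at 58.2, 49.3 and 48.6 CPM in Het embryos 1 to 3 and 48.6 CPM in Het embryo 4, between the other genotypes under both prefixes. Cdkn1a, the kinase inhibitor p21, was at 9.14, 11.5 and 11.7 CPM in WT and 14.45, 14.6 and 16.02 CPM in KO, a call that was lost without WT embryo 1 or KO embryo 3. Of 18 targets of p53, which partly are the same genes, 5 rose and 2 fell.

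The Notch pathway keeps neighbouring progenitors from differentiating at the same time, and 10 of its 30 tested genes rose and 1 fell. Against Het embryos 1 to 3, 3 rose and 1 fell. With equal cells per cluster 8 rose and 4 fell, and with the prefix as a covariate 5 rose and 1 fell. Of the ligands, Dll1 rose from 8.97, 8.86 and 8.44 CPM to 13.1, 14.1 and 15.2 CPM (log2 fold change 0.69 ± 0.067). Of the receptors, Notch1 rose from 19.6, 21.6 and 21.2 CPM to 30.6, 27.6 and 31.5 CPM. Mfng, a glycosyltransferase that tunes the receptors' choice of ligand, was at 15.5, 14.6 and 14.8 CPM in WT and 29.6, 33.1 and 32.1 CPM in KO (log2 fold change 1.08 ± 0.063, adjusted p = 1.48e-06). Every KO embryo exceeded every WT embryo for these 3 genes. Dtx4, an E3 ligase of the Deltex family that acts on the receptor, moved the other way, from 24.7, 25.4 and 23.5 CPM to 8.34, 8.37 and 8.22 CPM (log2 fold change −1.56 ± 0.059, adjusted p = 1.11e-07), and its 4 Het embryos lay between 14.0 and 15.9 CPM. Mfng and Dtx4 also differed between KO and Het embryos 1 to 3, by 0.54 (adjusted p = 0.00152) and −0.87 (adjusted p = 0.000116).

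Of the other signalling pathways, Wnt genes were called near the shares of all genes against WT, with 9 of 55 higher and 8 lower. Against Het embryos 1 to 3, 6 of 54 were higher and 7 lower, above the 2.92% and 3.22% of all genes. Rspo3, a secreted amplifier of Wnt signals, was at 67.9, 61.4 and 56.2 CPM in WT and 115, 104 and 111 CPM in KO, and the ligand Wnt7b was at 51.5, 46.8 and 46.9 CPM in WT and 87.5, 81.5 and 75.4 CPM in KO. Of 14 Hedgehog genes, 6 rose and 2 fell, but 1 rose and none fell against Het embryos 1 to 3. Gli3, the transcription factor that represses Hedgehog targets in the dorsal brain, rose from 6.61, 7.41 and 7.05 CPM to 15.9, 12.1 and 16.95 CPM (log2 fold change 1.09 ± 0.14), while Ptch1, the receptor and a known target of the pathway, fell from 17.5, 18.8 and 17.7 CPM to 13.7, 14.7 and 15.01 CPM. In the FGF pathway 11 of 30 genes fell and 5 rose, and 7 fell and 3 rose against Het embryos 1 to 3. The feedback inhibitors were split, with Spred2 at 36.6, 36.1 and 33.7 CPM in WT and 24.8, 25.1 and 25.2 CPM in KO and Dusp6 at 17.02, 15.3 and 12.7 and 23.1, 20.6 and 23.3 CPM. The TGF-beta and BMP pathway had 7 of 36 genes called in each direction, 38.9% against 24.5% of all genes. Retinoic acid genes were called higher in 2 and lower in 3 of 17. Among the growth factors listed with the neurotrophins, Mdk and Ptn, which form a family of heparin-binding factors, moved apart. Mdk was at 153, 154 and 158 CPM in WT and 278, 305 and 305 CPM in KO (log2 fold change 0.93 ± 0.07). Ptn was at 973, 1004 and 959 CPM in WT and 555, 610.0 and 644 CPM in KO (log2 fold change −0.70 ± 0.061). Ntrk2, the receptor of BDNF, fell from 106, 114 and 103 CPM to 80.3, 68.4 and 78.03 CPM.

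Factors of cortical progenitors rose in 16 of 24 and fell in 1. Eomes, the transcription factor of intermediate progenitors, was at 40.1, 44.6 and 44.9 CPM in WT and 86.3, 67.7 and 88.9 CPM in KO (log2 fold change 0.91 ± 0.14), and Vim, the intermediate filament of radial glia, at 148, 176 and 179 and 332, 269 and 319.9 CPM. Against Het embryos 1 to 3, 5 of the 24 were called higher, and for Eomes the value there was 0.27 (adjusted p = 0.323). The share of subventricular zone-like cells, given below, moved with this list, and with equal cells per cluster 12 of 24 were called higher and 4 lower.

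Factors of neuronal differentiation were called in both directions, 16 of 39 higher and 6 lower, and 10 higher and 3 lower against Het embryos 1 to 3. Nfia, which acts in the onset of glial fate and in neurons, was at 278, 294 and 265 CPM in WT and 630.0, 577 and 594 CPM in KO (log2 fold change 1.11 ± 0.087). Fezf2 and Sox5, which specify the projection neurons of the deep layers, rose from 80.9, 80.7 and 69.2 CPM to 179, 145 and 145 CPM and from 226, 199.8 and 174 CPM to 421, 355 and 374 CPM. Het embryos 1 to 3 were at 106, 89.3 and 92.1 CPM and Het embryo 4 at 119 CPM for Fezf2, below every KO embryo under either prefix. Mef2c, a factor of maturing neurons, fell from 1161, 1088 and 1040.5 CPM to 659.9, 629.8 and 628 CPM (log2 fold change −0.78 ± 0.057). Of the factors of the inhibitory lineage, 4 of 35 rose and 5 fell. Lhx6, which interneurons of the medial ganglionic eminence need, was at 28.1, 29.03 and 31.8 CPM in WT and 14.2, 20.3 and 21.6 CPM in KO, and Dlx2, which acts earlier in that lineage, at 44.4, 49.8 and 48.99 and 50.8, 73.6 and 67.3 CPM. The call of Dlx2 was lost without WT embryo 1 or 3 or KO embryo 2 or 3.

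Receptor genes of both fast transmitters were called lower more often than higher in KO. Of 37 genes for glutamate receptors and their auxiliary subunits, 24 fell and 1 rose, with a median log2 fold change of −0.58, and against Het embryos 1 to 3 the counts were 11 and 0 (median −0.31). Neto1, an auxiliary subunit of kainate receptors, was at 13.7, 17.2 and 16.2 CPM in WT and 6.13, 6.23 and 6.51 CPM in KO (log2 fold change −1.32 ± 0.11, adjusted p = 1.24e-05), with 10.7, 11.4 and 12.1 CPM in Het embryos 1 to 3 and 14.2 CPM in Het embryo 4. The metabotropic receptor Grm3 fell from 12.2, 16.6 and 11.1 CPM to 7.14, 6.32 and 7.16 CPM (log2 fold change −0.95 ± 0.13). Cacng7, an auxiliary subunit of AMPA receptors, was at 28.3, 25.2 and 29.2 CPM in WT and 32.9 CPM in Het embryo 4 and at 10.1, 9.38 and 11.6 CPM in Het embryos 1 to 3 and 10.9, 13.03 and 10.1 CPM in KO, which is the order of the prefix. Its call held without WT embryo 2 and was lost without any other of the 6 embryos. It also held with WT and KO embryos alone and without Het embryo 4. The Het embryos of both prefixes share in the estimate of the spread, and the part of the prefix in it was not tested. With equal cells per cluster, 23 of the 37 were called lower and 2 higher.

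Of 25 GABA and glycine receptor genes 10 fell and none rose, and 7 fell and none rose against Het embryos 1 to 3. Gabra5, a subunit of receptors outside the synapse, was at 13.5, 17.1 and 16.503 CPM in WT and 6.41, 5.10 and 9.09 CPM in KO (log2 fold change −1.19 ± 0.18). Gabrb1 was at 18.7, 25.8 and 25.6 CPM in WT and 10.8, 8.18 and 12.1 CPM in KO, and Gabrb2, another beta subunit, fell from 14.1, 14.2 and 13.2 CPM to 8.01, 7.88 and 8.69 CPM with little spread. Of 72 voltage-gated and calcium-release channel genes, 31 fell and 7 rose, but 9 fell and 7 rose against Het embryos 1 to 3 (median −0.08). Itpr1, which releases calcium from the endoplasmic reticulum, was at 92.8, 73.6 and 78.9 CPM in WT and 32.1, 35.1 and 34.96 CPM in KO (log2 fold change −1.26 ± 0.077, adjusted p = 1.94e-06), with all Het embryos at 52.1 to 57.0 CPM. Kcnip3, which binds potassium channels, rose and was at 9.32, 10.3 and 8.90 and 12.6, 11.5 and 12.3 CPM.

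**Figure D3:**
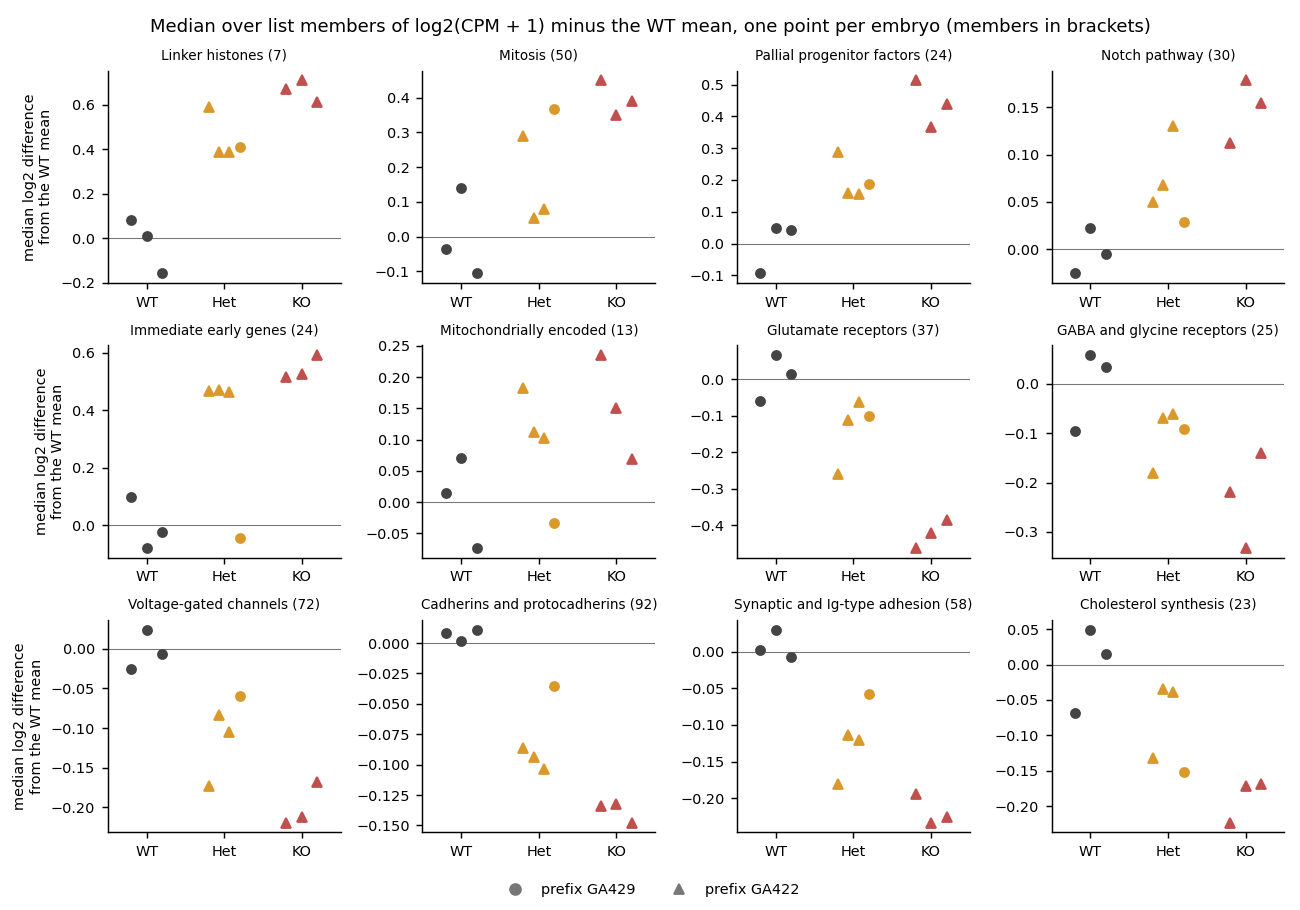
Each point is 1 embryo, and its height is the median over the members of a list of log2(CPM + 1) minus the WT mean, with circles for prefix GA429 and triangles for GA422. Glutamate receptor genes lie at −0.38 to −0.46 in the 3 KO embryos, below all Het and WT embryos, while the immediate early genes of Het embryos 1 to 3 lie at 0.46 to 0.47, close to KO (0.52 to 0.59), and those of Het embryo 4 at −0.05, with WT.

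Synaptic proteins and adhesion molecules fell more often than they rose. Of 34 postsynaptic scaffold and signalling genes, 10 fell and 2 rose, among them Dlgap1, which links receptors to the scaffold, at 122, 134 and 118 CPM in WT and 72.6, 60.6 and 75.7 CPM in KO (log2 fold change −0.84 ± 0.088), and Dlg2, a scaffold of NMDA receptors, at 64.4, 66.9 and 62.5 and 40.3, 36.5 and 38.8 CPM. Of 49 synaptic vesicle and active zone genes, 13 fell and 3 rose, but 1 fell and 2 rose against Het embryos 1 to 3. Cadps, which primes dense-core vesicles, rose and was at 86.9, 87.1 and 92.2 CPM in WT and 127, 121 and 132 CPM in KO. Of 58 genes for synaptic and immunoglobulin-type adhesion, 26 fell and 7 rose. Tenm3, a teneurin that matches axons to their targets, was at 96.3, 83.5 and 82.9 CPM in WT and 42.9, 40.3 and 38.96 CPM in KO (log2 fold change −1.10 ± 0.07), and the teneurin Tenm1 was at 65.3, 65.8 and 67.1 and 38.5, 28.02 and 38.5 CPM. Of 92 cadherins and protocadherins, 28 fell and 4 rose, and 4 fell and 1 rose against Het embryos 1 to 3. Pcdh7 was at 86.8, 82.9 and 76.6 CPM in WT and 42.6, 37.8 and 45.00 CPM in KO, and Celsr1, a cadherin of planar polarity found in progenitors, moved the other way, at 11.6, 10.97 and 12.5 and 24.4, 19.7 and 22.9 CPM.

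Axon guidance genes as a list did not stand apart from all genes in the sums over all cells against WT, with 8 of 71 higher and 9 lower. Against Het embryos 1 to 3, 6 of 71 were higher and 4 lower, with 2.92% and 3.22% of all genes. Within the list Unc5c, a netrin receptor that mediates repulsion, fell from 27.5, 27.2 and 29.1 CPM in WT to 13.9, 15.7 and 17.2 CPM in KO (log2 fold change −0.84 ± 0.07), and Efnb1, an ephrin ligand, rose from 54.8, 50.9 and 55.2 CPM to 77.7, 78.9 and 78.7 CPM. Of the cytoskeletal genes, 14 of 54 kinesin and dynein genes rose, among them Nde1, Kif11 and Kif23, which act on spindles or at the midbody, and 3 fell, but 3 were called in each direction with equal cells per cluster. Kif26b, a kinesin-like gene of cell polarity, was at 30.4, 30.7 and 30.1 CPM in WT and 9.98, 8.89 and 10.5 CPM in KO (log2 fold change −1.63 ± 0.08, adjusted p = 4.46e-07), with 18.1 to 22.1 CPM in the Het embryos. Mapt, the microtubule protein tau, fell from 1105, 1180.2 and 1150.2 CPM to 749, 685 and 689 CPM.

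Of 28 neuropeptide genes and their receptors, 10 fell and 5 rose, but 4 of 26 fell and 4 rose against Het embryos 1 to 3. Nts, which encodes neurotensin, was at 42.7, 50.2 and 56.4 CPM in WT and 4.01, 9.52 and 6.08 CPM in KO (log2 fold change −2.95 ± 0.29). Npy was at 104, 105 and 122 CPM in WT, 35.1, 33.2 and 39.1 CPM in KO, 89.4, 101 and 118 CPM in Het embryos 1 to 3 and 94.9 CPM in Het embryo 4, so only KO was low. KO differed from Het embryos 1 to 3 by −1.52 (adjusted p = 9.06e-05). Mc4r, the receptor of melanocortins, rose from 4.68, 5.05 and 2.91 CPM to 21.4, 15.8 and 15.7 CPM (log2 fold change 2.06 ± 0.20), and the Het embryos were at 4.57 to 6.66 CPM.

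Several lists followed the prefix. Immediate early genes, which cells transcribe within minutes of a stimulus such as activity or dissociation, were called higher in 13 of 24 and lower in 1. Fos was at 45.3, 31.1 and 33.4 CPM in WT and 99.1, 99.4 and 129 CPM in KO, but 105, 119 and 101 CPM in Het embryos 1 to 3 and 40.2 CPM in Het embryo 4. The difference between KO and Het embryos 1 to 3 was 0.01 (adjusted p = 0.976). Fosb and Klf4 had the same order, and over the list 2 genes were called in each direction against Het embryos 1 to 3. Nr4a2, also a factor of subplate and deep-layer neurons, did not follow it, at 51.9, 55.3 and 53.1 CPM in WT, 64.9, 55.7 and 66.1 CPM in Het embryos 1 to 3, 51.8 CPM in Het embryo 4 and 36.9, 35.7 and 34.1 CPM in KO. Of 13 mitochondrially encoded genes, 4 were called higher and none lower, and none was called by edgeR against Het embryos 1 to 3 (unadjusted p under 0.05 in 0). The median mitochondrial share of the cells, given above, had the same order, and the part of dissociation or library preparation in these lists was not tested.

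Over all cells, few genes of protein synthesis were called. Of 82 cytosolic ribosomal proteins, 5 rose and 12 fell (median 0.08), of 78 mitochondrial ones 7 rose and 2 fell, and none of either list was called by edgeR against Het embryos 1 to 3 (unadjusted p under 0.05 in 0 of 81 and 6 of 78). Among those that fell, Rpl38 and Rps28 followed the prefix, Rpl38 with 2349.9, 2512 and 2217 CPM in WT, 2231 CPM in Het embryo 4, 1546, 1553 and 1758 CPM in Het embryos 1 to 3 and 1739, 1288 and 1313 CPM in KO. Of 69 translation factors 6 rose and 5 fell, of 35 genes of ribosome biogenesis 1 rose and 2 fell, and of 22 tRNA synthetases 1 was called in each direction. Myc, a driver of ribosome biogenesis, was the larger of the 2 decreases, at 12.9, 14.1 and 10.4 CPM in WT, 12.4, 12.7 and 12.7 CPM in Het embryos 1 to 3, 10.1 CPM in Het embryo 4 and 7.51, 7.53 and 8.24 CPM in KO. SR proteins and hnRNPs, which bind pre-mRNA, rose in 8 of 63 and fell in 2, and core spliceosome genes rose in 1 of 40 and fell in 3. The nuclear genes of respiratory complexes I, II to IV and ATP synthase were called higher in 1, 2 and 1 and lower in 3, 1 and 4 of 45, 27 and 19.

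Genes of the integrated stress and unfolded protein responses were called higher in 12 of 23 and lower in none, but none was called by edgeR against Het embryos 1 to 3 (unadjusted p under 0.05 in 6). Ppp1r15a, a phosphatase subunit that ends the block of translation, was at 11.5, 11.01 and 10.6 CPM in WT, 15.97, 14.3 and 13.3 CPM in Het embryos 1 to 3, 11.4 CPM in Het embryo 4 and 17.3, 17.8 and 16.51 CPM in KO. Cholesterol synthesis genes fell in 9 of 23 and rose in 3, but 2 fell and none rose against Het embryos 1 to 3. Msmo1, an oxidase of the pathway, fell from 83.2, 93.99 and 91.2 CPM to 58.1, 56.7 and 59.2 CPM (log2 fold change −0.62 ± 0.054) and was at 65.9 to 73.3 CPM in the Het embryos of both prefixes, whereas Insig1, which retains the pathway's activator in the endoplasmic reticulum, was at 25.8, 28.1 and 25.4 CPM in WT, 26.02 CPM in Het embryo 4, 34.7, 35.3 and 37.1 CPM in Het embryos 1 to 3 and 34.9, 38.1 and 38.96 CPM in KO. Glycolysis genes rose in 5 of 22 and fell in 2, and 3 were called higher and none lower against Het embryos 1 to 3, among them Pkm, the pyruvate kinase, from 322, 301 and 314 CPM in WT to 411, 411 and 397 CPM in KO. Proteasome genes rose in 3 of 50, chaperones in 5 of 32 and lysosomal genes in 1 of 30, with 0, 0 and 2 lower. Imprinted genes were called higher in 8 of 36 and lower in 4, with the growth regulators Plagl1 and Grb10 at 34.04, 27.8 and 33.6 and 29.3, 28.3 and 32.05 CPM in KO against 16.2, 16.495 and 16.4 and 19.6, 20.7 and 19.9 CPM in WT. Circadian genes were called lower in 6 of 18 and higher in 1, but 1 was lower and none higher against Het embryos 1 to 3. Interferon response genes were called in 2 of 20 each way, and of 39 Hox genes 2 passed the filter on low counts. Of the Sall genes, Sall4 and Sall1 rose and Sall2 fell. Oligodendrocyte precursor markers were lower in 4 of 5, and these cells made up 0.284%, 0.447% and 0.333% of WT and 0.256%, 0.214% and 0.227% of KO embryos.

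The same lists were fitted within cell classes. The classes differ in cells per embryo, from 49 to 108 in layer I-like and 100 to 183 in radial glia-like to 776 to 1323 in interneuron-like and 1552 to 2785 in layer II-IV-like cells. Counts of calls were not tested between classes, except by the interaction given below. Classes were clusters named from marker genes and are written with the ending -like. Called genes made up 15.9% of the genes tested in radial glia-like cells, 24.9% in subventricular zone-like, 30.1% in layer II-IV-like, 25.95% in layer V-VI-like, 5.20% in layer I-like, 7.86% in interneuron-like and 14.6% in striatal inhibitory-like cells. Erythroid-like and microglia-like cells, with 56 genes higher and 4 lower of 2725 and with 46 and 50 of 4427, are not described further. The count for interneuron-like cells was 1011 genes and fell to 271 without KO embryo 2, while with the prefix as a covariate it was 21. Glutamate receptor genes fell more often than they rose in each of the 7 classes, with 11 of 25 lower in radial glia-like cells (against 8.79% of all genes), 21 of 27 in subventricular zone-like cells (13.8%), 20 of 36 in layer II-IV-like cells (15.3%), 17 of 34 in layer V-VI-like cells (13.04%), 4 of 33 in layer I-like cells (2.60%), 10 of 36 in interneuron-like cells (4.04%) and 13 of 33 in striatal inhibitory-like cells (7.36%). From 0 to 4 glutamate receptor genes rose per class. In layer I-like cells 2 genes were called in each direction without WT embryo 3, and 2 to 4 were lower without any other embryo. The count lower in interneuron-like cells was 5 without WT embryo 3 or KO embryo 2 and 6 without KO embryo 1, and that in radial glia-like cells was 6 without WT embryo 2 and 7 without WT embryo 3 or KO embryo 1. With the prefix as a covariate 14 glutamate receptor genes were lower in layer II-IV-like, 12 in subventricular zone-like and 10 in layer V-VI-like cells, and 0 to 2 in the other classes. That covariate rests on 1 Het embryo of the prefix GA429, and under it the median log2 fold change of the list was −0.49 in layer II-IV-like (−0.40 without it), −1.21 in subventricular zone-like (−1.28), −0.29 in layer V-VI-like (−0.46) and −0.11 to −0.29 in the other classes (−0.12 to −0.58). The class of subventricular zone-like cells joined clusters 9 and 19, of which cluster 19 held 29.1% of its cells in WT and 9.47% in KO, and the part of this shift in its values was not tested. In layer II-IV-like cells, cluster 0 held 55.6% in WT and 47.7% in KO and cluster 1 held 32.3% and 44.2%.

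Neto1 fell where it was most abundant, in interneuron-like cells, from 105, 111 and 101 CPM to 49.9, 35.6 and 44.5 CPM. Gabra5 fell in layer II-IV-like cells from 10.5, 14.8 and 12.4 CPM to 1.58, 1.45 and 2.17 CPM (log2 fold change −2.85) and in subventricular zone-like cells from 4.09, 5.26 and 5.45 CPM to 0.964, 0.949 and 0.410 CPM. In interneuron-like cells it was at 13.3, 28.9 and 20.8 CPM in WT and 14.9, 16.8 and 24.3 CPM in KO, which overlapped. GABA and glycine receptor genes were called lower in 11 of 21 in layer II-IV-like cells, 13 of 17 in subventricular zone-like cells, 7 of 19 in layer V-VI-like and in striatal inhibitory-like cells, 6 of 13 in radial glia-like cells and 1 of 20 in interneuron-like cells. In layer I-like cells 2 were higher and none lower. Grm3 was at 16.00, 18.4 and 14.99 CPM in radial glia-like cells of WT and 1.77, 1.42 and 2.52 CPM in those of KO. Markers of other cells also fell in the radial glia-like class, 2 of 4 of oligodendrocyte precursors (median −1.23), 2 of 3 of mural cells (median −1.37), 1 of 2 of choroid plexus and the 1 endothelial marker tested, and their part in its values was not tested. Transcripts of neurons in radial glia-like cells, and of interneurons in other classes, can be free RNA taken up in droplets. Lhx6 was found in layer II-IV-like cells at 6.53, 5.0 and 6.36 CPM in WT, against 298, 234 and 262 CPM in interneuron-like cells, and the part of free RNA in the class values was not tested.

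**Figure D4:**
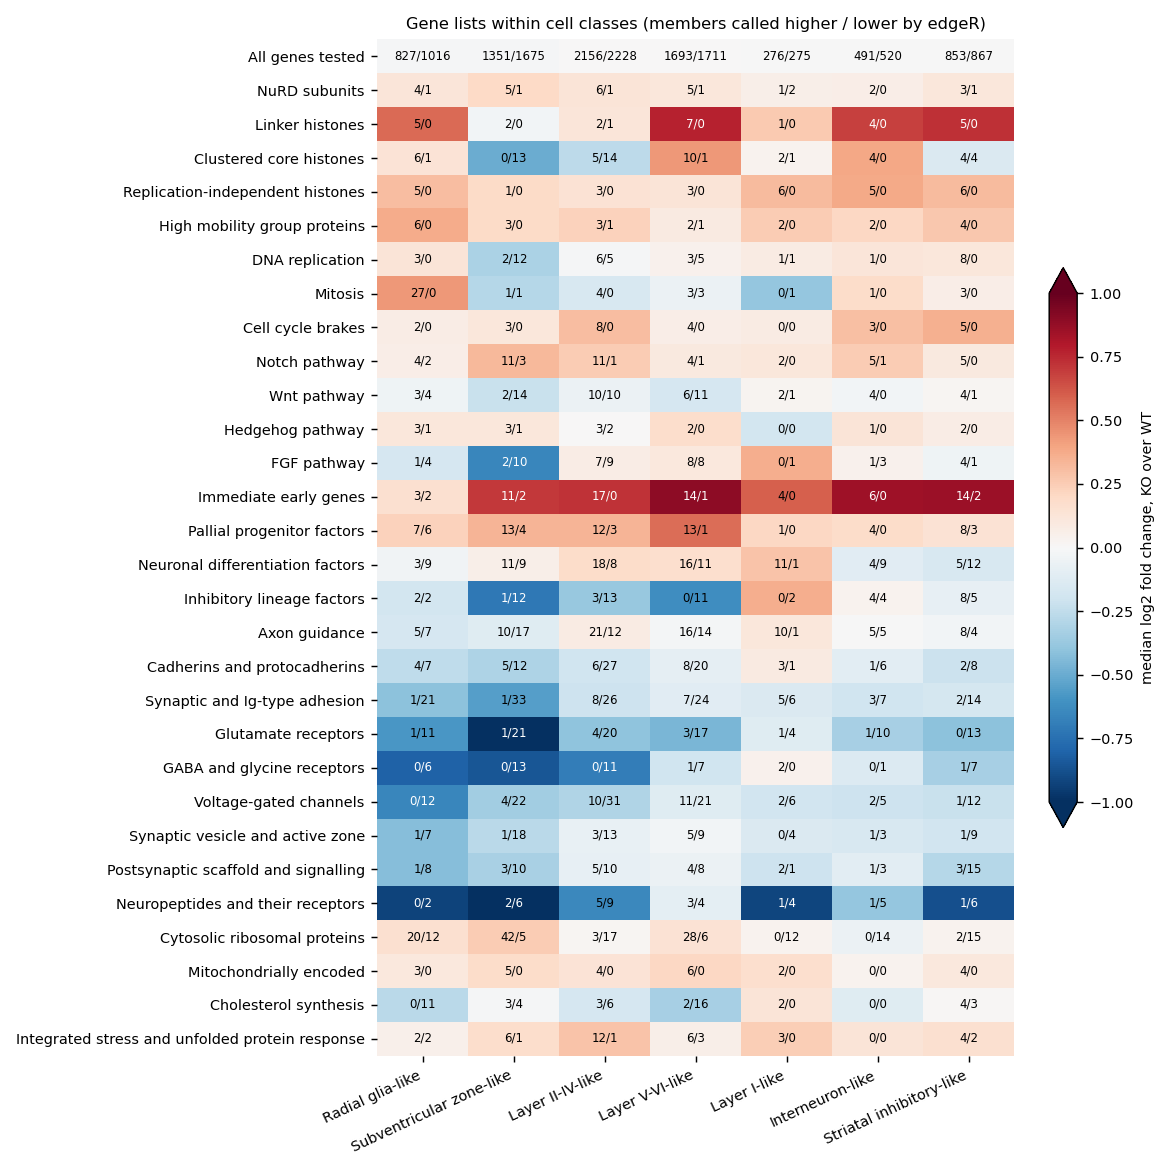
Each cell gives the number of members of a gene list called higher / lower in KO by edgeR within a cell class, and its colour the median log2 fold change of KO over WT, red for higher and blue for lower (colours end at −1 and 1). Glutamate receptors are blue in all 7 classes, mitosis is reddest in radial glia-like cells (27 higher, 0 lower, and 8 higher without WT embryo 3), and linker histones are red in layer V-VI-like cells (7 higher, 0 lower).

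Linker histones rose in 7 of 7 in the layer V-VI-like class (against 12.9% of all genes), 5 of 7 in radial glia-like and in striatal inhibitory-like cells (7.24% in the latter), 4 of 7 in interneuron-like cells (3.82%) and 1 of 7 in layer I-like cells (2.61%), with none lower in these classes. In layer II-IV-like cells (14.8% of all genes higher) 2 rose and 1 fell, and in subventricular zone-like cells 2 rose and none fell (median −0.03). The count in interneuron-like cells was 1 without WT embryo 3 and 2 without KO embryo 2, and that in radial glia-like cells was 3 without WT embryo 2, WT embryo 3 or KO embryo 3. With the prefix as a covariate 3 linker histones were higher in layer V-VI-like, 2 in layer II-IV-like and in subventricular zone-like, 1 in striatal inhibitory-like and 0 in interneuron-like, layer I-like and radial glia-like cells, with 1 lower in the last. Hist1h1e itself rose in all 7 classes. In layer V-VI-like cells it was at 31.2, 25.01 and 26.6 CPM in WT and 77.96, 86.6 and 80.7 CPM in KO, and in the interneuron-like class at 170.2, 87.5 and 113 CPM and 392, 371 and 369 CPM. Clustered core histones fell in 14 of 48 and rose in 5 in layer II-IV-like cells, and fell in 13 of 38 with none higher in subventricular zone-like cells, opposite to the counts over all cells. In the latter class 5 fell without WT embryo 2, 7 without KO embryo 3 and 9 without KO embryo 2, and with the prefix as a covariate 4 and 3 fell in these classes.

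Gadd45g was at 113, 125 and 141 CPM in subventricular zone-like cells of WT and rose to 325, 282 and 285 CPM. In layer V-VI-like cells it rose from 8.72, 8.24 and 10.5 CPM to 41.00, 52.95 and 37.5 CPM (log2 fold change 2.27), so the increase was also found in neurons. Mfng rose in subventricular zone-like cells from 105, 90.9 and 87.4 CPM to 145, 149 and 138 CPM and in interneuron-like cells from 22.2, 12.8 and 15.5 CPM to 46.00, 49.2 and 49.1 CPM. Dtx4 fell in layer II-IV-like cells from 36.8, 42.1 and 38.7 CPM to 6.25, 8.17 and 6.53 CPM (log2 fold change −2.49), the class in which it was most abundant. Fezf2 rose in layer V-VI-like cells, where it was most abundant, from 322, 319 and 335 CPM to 610.3, 591 and 607 CPM, and in layer II-IV-like cells, it rose from 30.8, 33.7 and 27.4 CPM to 107, 84.6 and 94.1 CPM (log2 fold change 1.64). Sox5 rose in layer II-IV-like cells from 123, 119.7 and 110.3 CPM to 377, 322 and 358 CPM. The classes come from clusters made without the called genes. With these kept, the Fezf2 and Ldb2 cluster of layer V-VI-like cells held 4991 cells of the series, against 3045 in cluster 7. The part of deep-layer cells placed in the layer II-IV-like class in these values was not tested. Mc4r was found mainly in layer V-VI-like cells and rose there from 21.7, 23.4 and 20.3 CPM to 116, 101 and 107 CPM. Nts fell in those cells and was at 228, 282 and 443 CPM in WT and 0.798, 1.39 and 0.158 CPM in KO, while in striatal inhibitory-like cells it was at 24.99, 15.1 and 30.3 CPM in WT and 60.2, 75.8 and 19.3 CPM in KO, with overlap. Npy fell in interneuron-like cells from 469, 389.5 and 705 CPM to 226, 207 and 253 CPM and in layer V-VI-like cells from 262, 217 and 223 CPM to 96.8, 90.7 and 84.3 CPM.

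Other lists also differed between classes in their counts. Cytosolic ribosomal protein genes were called higher in 42 of 81 and lower in 5 in subventricular zone-like cells (against 11.1% and 13.8% of all genes), with Rps6 at 1128, 1051 and 1058 CPM in WT and 1549.9, 1559 and 1557 CPM in KO, and higher in 28 of 81 and lower in 6 in the layer V-VI-like class. With the prefix as a covariate 44 were higher in subventricular zone-like and 21 in layer V-VI-like cells, with 0 lower by edgeR. In layer V-VI-like cells 18 were higher and 15 lower without KO embryo 1. Interneuron-like cells had 14 called lower and 0 higher by edgeR, but 2 lower without KO embryo 2, 4 without KO embryo 3, 5 without WT embryo 3, 6 without WT embryo 1, 9 without WT embryo 2 and 0 with the covariate. Cholesterol synthesis genes fell in 16 of 23 in layer V-VI-like cells and 11 of 23 in radial glia-like cells, where Msmo1 was at 205, 245 and 217 CPM in WT and 129, 129 and 135 CPM in KO. Without WT embryo 2, KO embryo 1 or KO embryo 2 the count in radial glia-like cells was 7, and with the covariate 16 and 3 fell in these classes. Immediate early genes were called higher in every neuronal class (17 of 21 in layer II-IV-like cells), but in radial glia-like cells 3 of 18 were higher and 2 lower, and Fos was at 179.8, 149 and 146 CPM in WT and 197, 197 and 271 CPM in KO there. With the covariate 0 immediate early genes were called higher in interneuron-like, layer I-like and striatal inhibitory-like cells, 7 in layer II-IV-like and 10 in the layer V-VI-like class. Among interneuron-like cells the count was 6, or 2 without WT embryo 3 and 3 without KO embryo 3, and in layer I-like cells 4, or 1 without WT embryo 1 or KO embryo 2 and 2 without WT embryo 3.

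The effect of the genotype was compared directly between layer II-IV-like and interneuron-like cells of the same embryos, as an interaction of genotype and class. It differed for 983 of 14527 genes (6.77%), with KO minus WT higher in interneuron-like cells for 482 (3.32%) and lower for 501 (3.45%). Without WT embryo 3 the count was 547, and without 1 of the KO embryos it was 559 to 586. Of 22 GABA and glycine receptor genes, 9 had the higher value in interneuron-like cells and none the lower, and of 33 factors of the inhibitory lineage 13 and 2 did, in part genes that layer II-IV-like cells hold only at traces. Of 38 factors of neuronal differentiation, 15 had the lower value in interneuron-like cells and 3 the higher. Sox5 was lower by −1.42 (adjusted p = 0.000123) and Fezf2 by −1.52 (adjusted p = 0.000787), with the limit on the layer II-IV-like class given above. For Gabra5 the difference was 2.70 (adjusted p = 4.57e-06). Unc5c went in opposite directions, from 46.9, 51.2 and 53.3 CPM to 21.5, 17.5 and 24.6 CPM in layer II-IV-like cells and from 33.8, 39.4 and 39.8 CPM to 50.2, 44.5 and 52.1 CPM in interneuron-like cells, a difference of 1.62 (adjusted p = 9.71e-07).

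Shares of cells were compared by two-sided exact permutation tests, which cannot give a p below 0.1 with 3 embryos a group. Subventricular zone-like cells made up 3.64%, 4.01% and 4.38% in WT and 6.45%, 5.87% and 7.04% in KO (exact permutation p = 0.1, adjusted over 11 classes 0.275), and the rise lay in cluster 9, led by Eomes and Neurog2, from 2.82% ± 0.0659 to 5.84% ± 0.520 (SD, n = 3). Het embryos 1 to 3 were at 6.83%, 4.62% and 4.20% for the class and Het embryo 4 at 5.34%. KO minus WT was 2.44 percentage points for the class, and 6.03 when clusters were made without integration. These values do not cover the same cells. Without integration the name went to 8278 cells of the whole series, led by Eomes and Unc5d. In the main clustering cluster 9 held 2720 cells, and Unc5d led cluster 1 of the layer II-IV-like class. Layer I-like cells were at 1.14%, 1.22% and 1.38% in WT and 1.06%, 0.952% and 1.05% in KO, with no overlap. Erythroid-like and oligodendrocyte precursor-like cells also did not overlap and were lower in KO, the latter with only 11 to 32 cells per embryo. Without marked doublets the exact permutation p was 0.2 for layer I-like and 0.3 for erythroid-like cells. With at most 5% mitochondrial UMIs it was 0.3 for layer I-like, 0.4 for erythroid-like and 0.2 for oligodendrocyte precursor-like cells. The other 7 classes overlapped. Radial glia-like cells were among these, at 1.30%, 1.96% and 1.73% in WT and 3.09%, 1.94% and 2.96% in KO (exact permutation p = 0.2), a ratio of the means of 1.60 against 1.61 for subventricular zone-like cells. Cluster 7 of the layer V-VI-like class, led by Fezf2 and Ldb2, was higher in KO without overlap (4.05% ± 0.892 and 5.37% ± 0.673, SD, n = 3). Within the layer II-IV-like class, whose total was 30.9% ± 3.12 in WT and 29.6% ± 0.689 in KO (SD, n = 3), cluster 0 was lower (17.1% ± 1.37 and 14.1% ± 1.06), cluster 13, led by Inhba, was lower (3.72% ± 0.504 and 2.40% ± 0.219), and cluster 1, led by Unc5d and Sema3c, was higher (10.0% ± 1.84 and 13.1% ± 0.492). KO minus WT for the whole class was −1.26 percentage points (exact permutation p = 0.9) and turned to 0.498 without WT embryo 1, but it was −4.31 without integration, −4.27 with at least 3000 UMIs per cell, −3.88 with at most 5% mitochondrial UMIs and −2.97 over the named neural classes, each at the smallest p the design allows. The value without integration covers other cells, as Unc5d was then a leading gene of the subventricular zone-like cells. Unnamed clusters 12 and 14, whose cells had medians of 2664 and 1523 UMIs, were lower in KO and followed the prefix in the Het embryos, cluster 14 with 4.28% ± 0.272 in WT and 1.25% ± 0.716 in KO (SD, n = 3). All shares have these low-count cells in their denominator.

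Long genes fell most often. Of 557 tested genes that span 300 kb or more in GENCODE vM21, 37.5% were called lower and 8.62% higher (median −0.22), whereas of 5326 genes under 10 kb 9.16% were called lower and 15.2% higher (median 0.05). The order held by the length of the longest transcript, with 22.9% lower and 7.88% higher at 10 kb or more. Within classes, the share of genes of 300 kb or more called lower exceeded that of all genes of the class. It was 44.7% (against 15.3%) in layer II-IV-like, 43.3% (13.8%) in subventricular zone-like, 34.9% (13.04%) in layer V-VI-like, 26.7% (8.79%) in radial glia-like, 21.3% (7.36%) in striatal inhibitory-like, 10.6% (4.04%) in interneuron-like and 7.92% (2.60%) in layer I-like cells. In layer V-VI-like and layer I-like cells such genes were also called higher more often, in 18.98% (against 12.9%) and 4.46% (2.61%). Against Het embryos 1 to 3, over all cells, 14.1% of 552 such genes were called lower and 6.70% higher (3.22% and 2.92% of all genes). The share lower among genes of 300 kb or more was 3.00 times that of all genes against WT and 4.39 times against Het embryos 1 to 3. Some genes of the lists that fell are among them, such as Dlg2, Pcdh7, Tenm3 and Gabrb1. Of the tested members, 14 of 37 glutamate receptor genes, 5 of 25 GABA and glycine receptor genes, 24 of 72 channel genes and 27 of 58 synaptic and immunoglobulin-type adhesion genes span 300 kb or more, and the parts of length and family were not told apart.

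**Figure D5:**
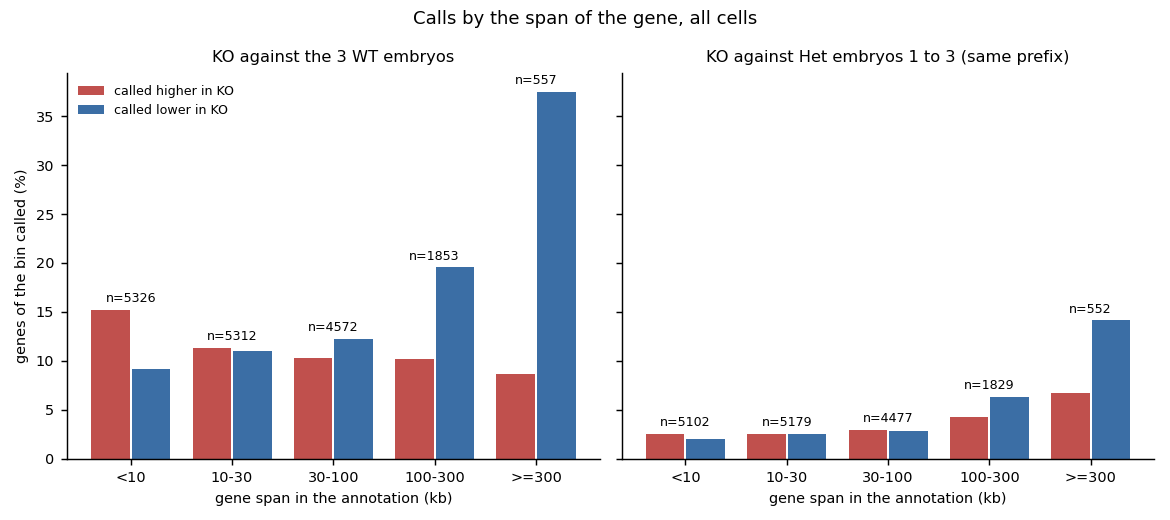
Bars give the percent of genes called higher (red) or lower (blue) in KO over all cells, by the span of the gene in kilobases, with n the number of genes tested in each bin, against WT on the left and against Het embryos 1 to 3 on the right. The share called lower rises from 9.16% under 10 kb to 37.5% at 300 kb and more on the left, and to 14.1% on the right.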

How the data were processed

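Single-cell 3′ RNA libraries (10X Genomics, version 3) of E16.5 cortex were compared between 3 WT and 3 Gatad2b stop/stop (KO) embryos. The authors deposited, for each embryo, filtered matrices of UMI counts per gene and cell, which are whole numbers and not normalized. The submitters' processing notes name Cell Ranger 6.0.2 and the build mm10, while the methods of the study name another Cell Ranger release. Cells were kept at 1000 UMIs or more and 10% mitochondrial UMIs or less, and UMIs were summed per embryo. The 6 summed libraries held 82872641 to 118476341 UMIs.

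KO was compared with WT by the quasi-likelihood F-test of edgeR (version 4.0.16, R version 4.3.3) on these counts, with the 4 Het embryos in the same fit for a shared estimate of the spread, filterByExpr and TMM normalization. Calls needed a Benjamini-Hochberg adjusted p under 0.05 together with a log2 fold change beyond 0.25 in either direction. Nothing in the labels names separate litters, so p-values measure the spread between these embryos. The same fit was run within each named class that had 20 cells or more in all embryos, and for the interaction of genotype and class with the embryo as a block. The main fit over all cells, the fits within classes and the interaction were also run on simulated data. They recovered only part of the changes put in. The alternative fits were not run on simulated data.

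Cells were clustered with Seurat (version 5.3.0) after integration over embryos, with 2000 variable genes, 30 principal components and resolution 0.4, leaving the called genes out of the variable genes. Clusters were named from marker lists, at thresholds set after the shares by group had been seen. Doublets were marked by scanpy's Scrublet (version 1.11.5) at the expected rate (4.80% to 8.31% of the cells of an embryo) and kept, and were removed in an alternative. Scrublet's own threshold marked 0.0341% to 2.53%. Shares were compared by exact permutation tests.

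The 57 gene lists and the comparison itself were chosen with earlier results of these data known, and no list is independent evidence. Named genes are, in each list, those called, not overlapping between KO and WT and at a mean of 10 CPM or more, the 3 largest changes in the direction with more calls and the largest in the other direction, plus the 10 largest increases and decreases over all genes, Gatad2b and Cdk2ap1. Some genes that this rule names, or that lead a cluster, are not reported here. Any member of a list of 5 or fewer genes could be named, and Cdk1 was added for its promoter. Gene spans are from GENCODE vM21 and promoters from RefSeq (GRCm38.p6). Alternatives were DESeq2 (version 1.42.0), other scalings, all genes without the filter, a block for the replicate number, the prefix as a covariate, WT and KO embryos alone, other cell filters, equal numbers of cells per cluster, other clusterings and leaving out each embryo. KO against Het embryos 1 to 3 was added after the data had been seen.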

Additional observations from a re-analysis of the deposited data

Results flagged for a closer look

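The difference between KO and WT differed between interneuron-like and layer II-IV-like cells for 983 of 14527 genes (6.77%). This was a test of the difference itself (edgeR, interaction of genotype and class). Of the 91 genes with values in the text, 29 were among them. These 91 were mostly picked for large changes in the same embryos, so their share cannot be compared with that of all genes. The values here are the log2 fold change in interneuron-like cells minus that in layer II-IV-like cells, so a positive value of a gene that fell in both means a smaller decrease in interneuron-like cells. Of the genes lower in KO over all cells it was 2.70 for Gabra5, 2.56 for Mast4, 1.84 for Mical2, 1.69 for Dtx4, 1.65 for Npy, 1.63 for Caln1, 1.62 for Unc5c, 1.46 for Gabrb1, 1.26 for Sall2, 1.13 for Lhx6, 1.11 for Gabrb2, 1.02 for Tenm3, 1.00 for Pcdh7, 0.94 for Dlg2, 0.71 for Ntrk2, 0.52 for Mef2c, 0.40 for Gatad2b, 0.26 for Mapt and −1.02 for Nr4a2. Of the genes higher in KO it was −2.71 for Ucp2, −1.52 for Fezf2, −1.42 for Sox5, −1.21 for Wnt7b, −1.13 for Cadps, −0.84 for Vim, −0.73 for Ifitm2, 0.29 for Hist1h1e, 0.69 for Dlx2 and 0.71 for Dusp6. Gatad2b itself fell less in interneuron-like than in layer II-IV-like cells. Traces of Lhx6 and Npy in layer II-IV-like cells can be free RNA, and its part in these 2 values was not tested.

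Among the 4 Het embryos, 1 embryo stood apart from the other 3 in several values, which chance does in about 1 of 20 groups. Het embryo 4, the only Het embryo with the prefix GA429, stood apart in AY036118 (264.8 CPM) and Cacng7 (32.9 CPM), and in both it lay with WT. Other values of this kind were 58.2 CPM of Gadd45g in Het embryo 1, and in the same embryo 46.9 CPM of Dlx2 and 65.9 CPM of Msmo1, 4.57 CPM of Mc4r and 1.02 CPM of Xist in Het embryo 2, 2.77 CPM of Ttr in Het embryo 3 and 10.1 CPM of Myc in Het embryo 4. Endothelial-like cells made up 5.84% of Het embryo 3, and 0.260% to 0.354% of the other Het embryos.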

How the results depend on the processing

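The counts of genes called higher (2121) and lower (2205) stayed within 1.5 times under DESeq2, both other scalings, no filter, the other cell filters, equal cells per cluster and leaving out any embryo (1693 to 2268 higher, 1730 to 2358 lower). With total UMIs in place of TMM they were 1707 and 2653. The library prefix as a covariate, which rests on the Het embryos of both prefixes, left 747 higher and 720 lower. KO against Het embryos 1 to 3, where the prefix is shared and the controls carry 1 mutant allele, gave 501 and 553, and the parts of the prefix and of the allele number in this drop cannot be told apart. Lists with more members higher than lower went from 32 to 21 in that comparison, and the share of genes of 300 kb or more called lower from 37.5% to 14.1%, or 15.1% with the covariate (of all genes from 12.5% to 3.22% and 4.08%). Within classes the covariate left 21 calls in interneuron-like, 98 in layer I-like, 2261 in layer II-IV-like, 1718 in layer V-VI-like, 269 in radial glia-like, 86 in striatal inhibitory-like and 962 in subventricular zone-like cells. The cause was not tested. The covariate turned the direction of AY036118 (−0.24), Cacng7 (0.38), Fosb (−0.41) and Klf4 (−0.20), and so did KO against Het embryos 1 to 3 for Cacng7 (0.13), Fosb (−0.14) and Klf4 (−0.0054). Under the covariate the medians of several lists turned too, such as immediate early (−0.09), FGF (−0.06), mitochondrially encoded (−0.05) and complex I genes (−0.06). Equal cells per cluster turned Kif11 (−0.012) and Kif23 (−0.014) and, among lists with called genes, the medians of mitosis, DNA replication, core histones, kinesins and dyneins, imprinted and Sall genes. The named genes were mostly picked for large changes without overlap in the main fit, and most alternatives reuse its embryos and counts. Their values therefore do not stand for the other called genes. Of 1979 values of 90 named genes under alternatives, 1897 kept their direction and call, 72 lost the call, 1 gained it and 9 turned. Most of these losses came from the settings that bear on the prefix. With the prefix as a covariate 24 genes lost the call and 4 turned, and in KO against Het embryos 1 to 3 it was 25 and 3. Without 1 WT or KO embryo, Cacng7 (any but WT embryo 2), Cdkn1a (WT embryo 1 or KO embryo 3), Dlx2 (WT embryo 1 or 3, KO embryo 2 or 3) and Fosb (WT embryo 2 or 3, KO embryo 3) lost it.

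Leaving out 1 embryo gave 271 (without KO embryo 2) to 876 calls in interneuron-like cells, 288 (without WT embryo 3) to 451 in layer I-like, 1057 (without KO embryo 2) to 1739 in radial glia-like and 878 (without KO embryo 2) to 1562 in striatal inhibitory-like cells, and 547 (without WT embryo 3) to 1280 for the interaction. In shares of cells, KO minus WT was −2.47 to 0.498 percentage points for layer II-IV-like cells (0.498 without WT embryo 1) and −1.45 to 0.676 for striatal inhibitory-like cells, whose main value of −0.202 turned without WT embryo 3 (0.676), KO embryo 1 (0.581) or KO embryo 3 (0.260). With at most 5% mitochondrial UMIs the differences for interneuron-like (0.443), layer V-VI-like (−0.152) and striatal inhibitory-like cells (0.131) turned. With 3 embryos a group the exact permutation test cannot give a p below 0.1, so no difference in shares could pass it at 0.05.

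Replicate numbers did not pair the embryos: deviations of same-numbered WT and KO embryos correlated at −0.0892, −0.120 and 0.0762. With the replicate block 2240 genes were called higher and 2386 lower, and calls in interneuron-like cells went from 1011 to 1527. Depth limits the smaller classes, and endothelial-like and oligodendrocyte precursor-like cells were too few for a fit.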
